A study of Bos grunniens with 12 samples.

Results

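Genes for the subunits and assembly factors of oxidative phosphorylation were taken by their symbol: NDUF for complex I, SDHA to SDHD for complex II, UQCR for complex III, COX4 to COX8 for complex IV and ATP5 for ATP synthase. Of the 20953 genes in the expression table of yak (Bos grunniens) testis, 98 carried such a symbol, under 47 different symbols. The table holds 6 input libraries of poly(A) RNA, 3 from healthy yaks of 1.5 years whose testes were removed by castration and 3 from yaks of 5 years whose testes were taken after death (slaughter in the record, euthanasia in the article). All animals came from 1 location, none received an agent or carried an allele named in the record, and age cannot be told apart from the way the tissue was taken. Each animal also gave an m6A immunoprecipitated library, of which the comparison of peaks between the ages was used. The titles give the age of each sample, and the libraries of 1.5 years are called 18M after them, because the developmental stage field names the opposite stage and the group letters differ between the record and the article.

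Complexes I and II feed electrons from NADH and succinate into the inner mitochondrial membrane, complex III passes them to cytochrome c, and complex IV, cytochrome c oxidase, transfers them to oxygen. ATP synthase uses the resulting proton gradient to make ATP. Several small nuclear-encoded subunits of complex IV exist as a ubiquitous form and a form restricted to a tissue: COX6B2, COX7B2 and COX8C are forms known from testis and male germ cells, COX6A2 and COX7A1 from heart and skeletal muscle, and COX4I2 from lung. Male germ cells also switch several enzymes of glycolysis and pyruvate oxidation to germ cell forms, among them PGK2, GAPDHS and PDHA2. Spermatids arrange their mitochondria in a sheath around the flagellum.

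A symbol in this table did not always name its gene. The table gives each gene its own GO terms and pathways, and these named a respiratory complex, its assembly or ATP synthase for 36 of the 98 rows. All 36 were the lowest identifier of their symbol, and none of the 51 rows that repeated a symbol on a later identifier had such an annotation. Another function stood in 34 rows, and no informative term in 28. COX8A alone stood on 25 rows, 14 of them annotated as aspartic-type endopeptidases. A row listed as ATP5F1B was annotated as a DNA primase, and RefSeq places PRIM1, a DNA primase subunit, 3 protein-coding genes from ATP5F1B. The row listed as ATP5PB was annotated as an adenosine receptor, and ADORA3 lies 2 genes from ATP5PB. The differential peak table, which gives positions, has 13 symbols on more than 1 identifier, and for 12 of them all identifiers lay on 1 chromosome or scaffold, 9020 to 1289669 bp apart. The values below are therefore those of the 36 annotated rows, and the counts over all 98 rows are given beside them.

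The libraries labelled 18M held spermatid transcripts. TNP1, transition protein 1 of elongating spermatids, was at 883, 852 and 879 FPKM (fragments per kilobase of transcript, relative to all mapped fragments) in the 18M libraries and at 201, 641 and 550 FPKM in the 5-year libraries. The 6 measured elongating spermatid markers summed to 1360 to 1433 FPKM at 18M and to 314, 994 and 875 FPKM at 5 years. The 6 round spermatid markers summed to 187 to 237 FPKM at 18M and to 50.1, 179 and 97.3 FPKM at 5 years. The 7 Sertoli cell markers ran the other way, with 78.6 to 92.4 FPKM at 18M and 260, 113 and 139 FPKM at 5 years. Animal 1 of the 5-year group stood apart, with the lowest spermatid and the highest Sertoli cell sums, and animal 2 lay nearest to the 18M libraries. In bulk tissue, fewer cells of a type and less RNA per cell cannot be told apart, and the part of this cell composition in the results below was not tested. The article describes the younger testes, from their histology, as without spermatids, so these levels go against the labelled age. Every direction between the ages given here rests on the titles and would turn if the labels were exchanged. The FPKM of a library summed to 116200 to 139900. The number of fragments is not in the table, but the value of 1 fragment, read from the lowest values, was 0.911 to 1.00 times that of the first 18M library, so the libraries were of similar depth.

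The respiratory chain genes covered a wide range of levels in the testis. Of the 36 annotated rows, 34 had a mean of at least 0.5 FPKM and were tested. The 2 others were COX6A2, the muscle form, listed at 0 in all 6 libraries, and NDUFA4L2, a paralog of NDUFA4 known from hypoxic cells, listed at 0.56 FPKM in 1 18M library and at 0 in the others. The median of the 34 tested rows was 11.3 FPKM, against 4.35 FPKM over the 12437 genes tested. UQCR10, a small subunit of complex III, was the highest at a mean of 185 FPKM, which placed it at rank 44 of the 20953 genes. COX7B2, the testis form of subunit 7B, followed at 134 FPKM and rank 72, above both main catalytic subunits of ATP synthase.

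**Figure D1:**
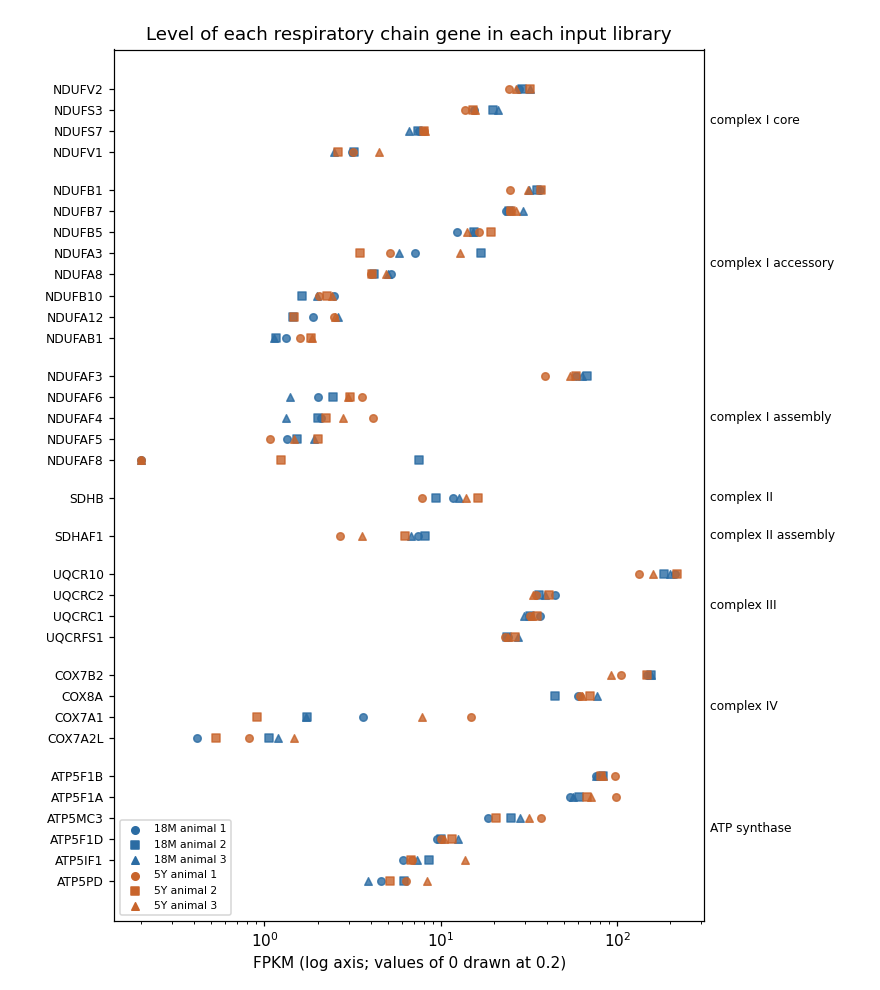
FPKM on a log axis of 33 of the 34 tested rows whose own annotation names the respiratory chain, 1 symbol per animal, in blue for 18M and in orange for 5 years, grouped by complex and ordered by mean level. UQCR10 and COX7B2 lie above 90 FPKM in every library, while the assembly factors other than NDUFAF3 lie below 10 FPKM.

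No respiratory chain gene passed the test for a change between the ages at an adjusted p-value of 0.05. Among all genes tested with limma and Benjamini-Hochberg adjustment, 4 of 12437 passed (0.0322%). At an unadjusted p under 0.05, 4 of the 34 annotated rows were higher at 5 years and 1 was lower, against 14.2% and 10.9% of all genes tested. Over all 60 tested rows of the symbol rule, 6 were higher and 3 lower, or 3 and 3 with libraries scaled to equal medians. The 5-year libraries all lay above the 18M libraries for 5 annotated rows and all below for 2, where 19.8% and 13.9% of all genes did so. The members' counts were not above these shares. The median log2 change (5-year minus 18M, on the log2(FPKM + 0.1) scale) was 0.05 over the annotated rows and 0.04 over all genes. Summed over the annotated rows, the level was 940, 949 and 975 FPKM at 18M and 868, 989 and 881 FPKM at 5 years, so that the groups overlapped.

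The absence of calls rested on animal 2 of the 5-year group. Without this library 2526 of 12450 genes (20.3%) had an adjusted p under 0.05 in limma, and 3 of the 34 annotated rows were among them: COX7B2, COX7A1 and SDHAF1. Leaving out any other library gave 0 calls among the annotated rows and at most 6 among all genes tested, so this 0 is not particular to these rows.

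**Figure D2:**
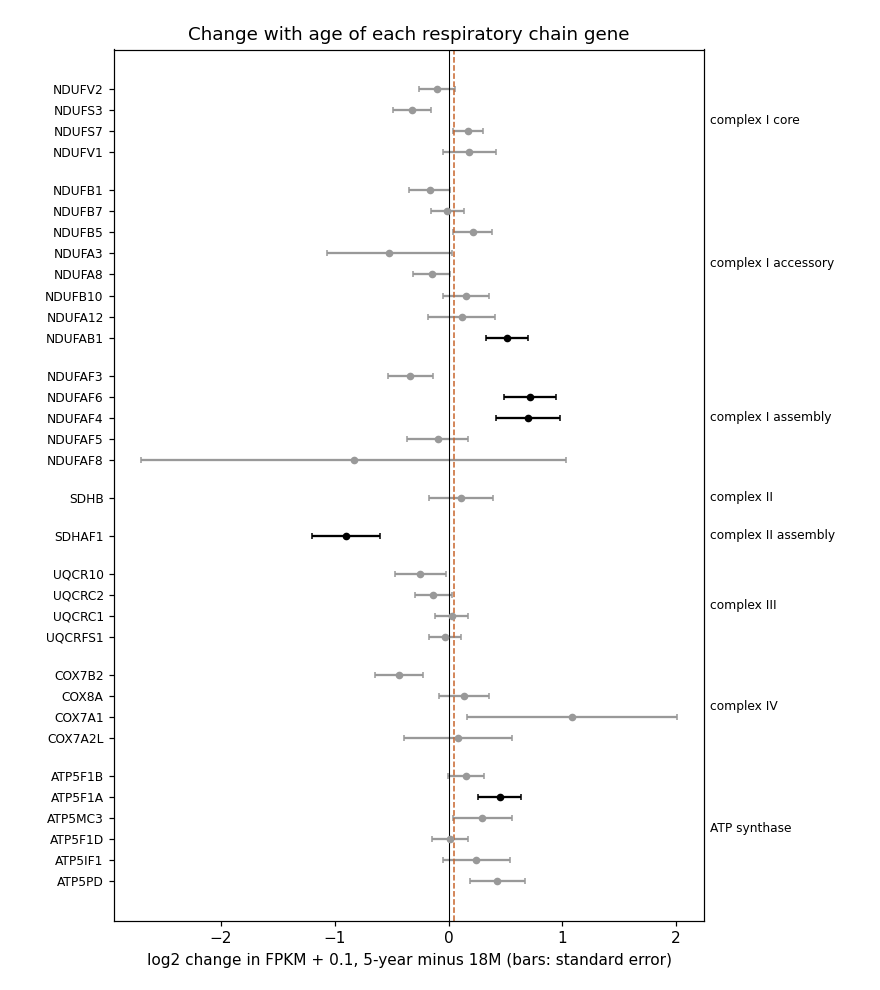
Log2 change (5-year minus 18M) with its standard error for 33 of the 34 tested annotated rows, ordered as in the plot of levels. Rows with an unadjusted p under 0.05 are in black, the solid line is at 0 and the dashed line at the median of all genes tested, 0.04. Only NDUFAB1, NDUFAF6, NDUFAF4, ATP5F1A and SDHAF1 are in black, and most changes lie between -0.5 and 0.5.

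Complex I oxidises NADH with a core of catalytic subunits. The 5 core genes with a respiratory annotation differed little between the ages, with log2 changes from -0.32 to 0.18, and none passed an unadjusted p of 0.05. The row listed as NDUFS1, a core symbol, lacked such an annotation and is given with the other rows of that kind. NDUFV2, a subunit of the NADH-binding module, was highest with 27.9, 28.8 and 32.1 FPKM at 18M and 24.3, 32.2 and 26.6 FPKM at 5 years. The groups overlapped for this gene. NDUFS3, an iron-sulphur protein module subunit, was at 15.4, 19.9 and 21.0 FPKM at 18M and 13.7, 15.1 and 15.7 FPKM at 5 years. Its change of -0.32 (standard error 0.16) had an adjusted p of 0.251. NDUFS7, which carries the last iron-sulphur cluster of the complex, was at 7.48, 7.42 and 6.61 FPKM at 18M and at 8.03, 8.01 and 8.18 FPKM at 5 years. Its groups did not overlap, but the change of 0.17 (standard error 0.13) had an adjusted p of 0.415.

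Of the 8 accessory subunits, NDUFB1 and NDUFB7 of the membrane arm were highest, with means of 32.7 and 25.5 FPKM, and the others lay between 1.49 and 15.5 FPKM. NDUFB1 was at 36.4, 35.3 and 31.6 FPKM at 18M and 24.8, 36.9 and 31.3 FPKM at 5 years, with overlapping groups. NDUFAB1, the mitochondrial acyl carrier protein, was at 1.33, 1.16 and 1.13 FPKM at 18M and 1.60, 1.83 and 1.87 FPKM at 5 years. Every 5-year library lay above every 18M library, with a log2 change of 0.51 (standard error 0.19) and an adjusted p of 0.169. Relative to its level, NDUFA3 varied widely among animals of the same age, from 5.77 to 16.8 FPKM at 18M and from 3.50 to 12.8 FPKM at 5 years.

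The complex I assembly factors did not move together. NDUFAF6, a factor needed for the early membrane part of the complex, was at 2.02, 2.44 and 1.40 FPKM at 18M and 3.56, 3.06 and 2.99 FPKM at 5 years, with a log2 change of 0.72 (standard error 0.23) and an adjusted p of 0.154. NDUFAF4 was at 2.09, 2.01 and 1.33 FPKM at 18M and 4.10, 2.22 and 2.79 FPKM at 5 years, with a change of 0.70 (standard error 0.28) and an adjusted p of 0.184. In both genes the groups did not overlap. NDUFAF3, which works with NDUFAF4 in assembly, was present at a far higher level of 58.5, 67.3 and 63.3 FPKM at 18M and 38.8, 58.6 and 54.4 FPKM at 5 years. With a standard error of 0.19, its change of -0.34 had an adjusted p of 0.301. NDUFAF8 was listed at 0 in 4 libraries, at 7.48 FPKM in 18M animal 2 and at 1.24 FPKM in 5-year animal 2. NDUFAF5 had a change of -0.10 and overlapping groups.

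Complex II was represented by SDHB, its iron-sulphur subunit, and by SDHAF1, the factor that helps to insert the iron-sulphur clusters into SDHB. SDHB was at 11.7, 9.44 and 12.7 FPKM at 18M and 7.87, 16.3 and 13.8 FPKM at 5 years, so that the 5-year libraries spanned the 18M ones. SDHAF1 was at 7.41, 8.17 and 6.75 FPKM at 18M and 2.67, 6.28 and 3.57 FPKM at 5 years. All 5-year libraries were below all 18M libraries, most so animals 1 and 3. The log2 change of SDHAF1 was -0.90 (standard error 0.30), with an unadjusted p of 0.0184 and an adjusted p of 0.158 from limma. Leaving out 5-year animal 2 gave a change of -1.24 (standard error 0.19) and an adjusted p of 0.0169, and leaving out 5-year animal 1 gave -0.64 (standard error 0.25) and an adjusted p of 0.249. The unadjusted p rose to 0.0574 without 18M animal 2 and to 0.0571 without 5-year animal 3.

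The 4 complex III genes had log2 changes between -0.25 and 0.03. UQCR10 was at 213, 185 and 200 FPKM at 18M and 133, 219 and 160 FPKM at 5 years. Animal 2 of the 5-year group was the highest of all 6 and animal 1 the lowest, and the change of -0.25 (standard error 0.23) had an adjusted p of 0.485. The core proteins UQCRC1 and UQCRC2, and UQCRFS1, the Rieske iron-sulphur protein, had means of 33.1, 38.1 and 24.9 FPKM. The ages overlapped for each of them.

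All 6 annotated ATP synthase genes had a positive log2 change, with a median of 0.27, but only ATP5F1A passed an unadjusted p of 0.05. ATP5F1A, the alpha subunit of the catalytic head, was at 53.9, 61.0 and 56.2 FPKM at 18M and 98.2, 67.4 and 71.4 FPKM at 5 years. The groups did not overlap, and animal 1 of the 5-year group was the highest. Its log2 change of 0.45 (standard error 0.19) had an adjusted p of 0.195. ATP5F1B, the beta subunit that holds the catalytic sites, was at 75.4, 83.2 and 75.4 FPKM against 97.3, 80.5 and 82.9 FPKM, with overlapping groups and a change of 0.15 (standard error 0.16). ATP5MC3, a gene for the rotating c-ring, was at 18.6, 25.1 and 28.2 FPKM against 37.2, 20.7 and 31.7 FPKM. ATP5IF1, the inhibitor of ATP hydrolysis, was at 6.11, 8.58 and 7.31 FPKM against 6.87, 6.76 and 13.7 FPKM, where only animal 3 of the 5-year group stood above the 18M range. The sum over the 6 genes was 168, 194 and 183 FPKM at 18M and 256, 192 and 219 FPKM at 5 years. The direction was positive for 6 of 6 genes when libraries were scaled to equal sums or by quantiles, and for 5 of 6 at equal medians. When animal 1 or 2 at 18M, or animal 2 or 3 at 5 years, was left out, it was positive for 5 of 6. Of the 12437 genes tested, 6651 had a positive change without scaling, 7842 at equal sums, 6554 by quantiles and 6075 at equal medians.

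The germ cell form of complex IV subunit 7B was among the highest respiratory chain transcripts at both ages. COX7B2 was at 147, 155 and 155 FPKM at 18M and 105, 147 and 92.5 FPKM at 5 years. All 5-year libraries were below all 18M libraries, by a narrow margin for animal 2. The means were 152 ± 4.81 FPKM and 115 ± 28.4 FPKM (SD, n = 3 each). The log2 change was -0.44 (standard error 0.21), with an unadjusted p of 0.0742 and an adjusted p of 0.232 from limma, and was -0.63 (standard error 0.17) with an adjusted p of 0.0449 without 5-year animal 2. Without 5-year animal 3 it was -0.30 (standard error 0.24) with an adjusted p of 0.480, and with quantile scaling -0.25 (standard error 0.17) with an adjusted p of 0.385. COX7B2 was lowest in animals 3 and 1 of the 5-year group, at 92.5 and 105 FPKM. These animals also had the lowest sums of elongating spermatid markers, but in the reverse order, at 875 and 314 FPKM. Animal 2 had a sum of 994 FPKM and COX7B2 at 147 FPKM. The part of these cells in the level of COX7B2 was not tested.

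COX8A, the ubiquitous form of subunit 8, was at 60.2, 44.4 and 76.6 FPKM at 18M and 61.7, 69.9 and 62.8 FPKM at 5 years. The 5-year values lay within the spread of the 18M animals, and the change of 0.13 (standard error 0.22) had an adjusted p of 0.708. COX7B2 was thus above COX8A in every library, by 2.44, 3.50 and 2.03 times at 18M and by 1.70, 2.10 and 1.47 times at 5 years. The log2 ratio of COX7B2 to COX8A had a mean of 1.37 ± 0.40 at 18M and 0.80 ± 0.26 at 5 years (SD, n = 3 each), a difference of -0.57. The exact two-sided permutation test gave p = 0.2, where 0.1 is the smallest p that 3 against 3 animals allow.

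COX7A1, the heart and skeletal muscle form of subunit 7A, was low and varied strongly among the animals. It was at 3.63, 1.73 and 1.72 FPKM at 18M and 14.9, 0.908 and 7.78 FPKM at 5 years, so that the 5-year group held both the highest and the lowest value. The log2 change of 1.09 (standard error 0.92) had an adjusted p of 0.461, and was 2.23 (standard error 0.41) with an adjusted p of 0.0221 without 5-year animal 2. Without 5-year animal 1 it was 0.28 (standard error 0.83) with an adjusted p of 0.875. The 3 measured striated muscle markers summed to 0.886 to 1.68 FPKM at 18M and 1.17 to 1.79 FPKM at 5 years, with MYH7 and CKM below 0.25 FPKM in every library. The 7 peritubular and stromal markers, which include smooth muscle genes, summed to 24.3, 27.9 and 27.1 FPKM at 18M and 58.2, 35.5 and 48.4 FPKM at 5 years, and their part in the values of COX7A1 was not tested. COX7A2L, a factor for joining complexes III and IV into supercomplexes, was between 0.417 and 1.47 FPKM in all libraries.

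The planned pairing of each germ cell or tissue form with its ubiquitous counterpart could not be made by symbol. For all 6 planned pairs at least 1 of the genes had no row under its own symbol, including COX7B, COX6B1, COX6B2, COX8C, COX4I1, COX4I2, COX6A1 and COX7A2. Rows with a respiratory annotation did stand outside the symbol rule, some of them under their own names, such as COX10 and COX18. Of 164 such rows, 40 were listed under a gene that RefSeq places near exactly 1 gene of the rule. Near means within 2 protein-coding genes. These rows carry no name of their own here, and the RefSeq neighbour is given only to say where the listed symbol lies.

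A row listed as ATP7A, a copper transporter gene, was annotated with cytochrome c oxidase activity and respiratory chain complex IV, and RefSeq places ATP7A next to COX7B. This row was at 8.32, 7.15 and 7.82 FPKM at 18M and 26.7, 9.01 and 13.7 FPKM at 5 years, opposite in direction to COX7B2. Its groups did not overlap, and the log2 change of 0.93 (standard error 0.36) had an adjusted p of 0.180. The level of COX7B2 was 17.7, 21.7 and 19.9 times that of this row at 18M and 3.93, 16.3 and 6.76 times at 5 years. The log2 ratio fell by a mean of 1.37, with no overlap of the groups. The exact two-sided permutation test gave p = 0.1, the smallest it allows, and an adjusted p of 0.3 over the 3 ratios tested. The 3 ratios were chosen after the values had been seen.

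Of the other candidate isoform rows, the row near COX6A1 was separated between the ages, and those near COX6B2, COX8C, COX4I1 and COX4I2 overlapped. The row listed as IL11, 2 genes from COX6B2, carried the oxidative phosphorylation pathway and the terms mitochondrial intermembrane space and crista. It was at 8.93, 7.08 and 7.01 FPKM at 18M and 3.16, 7.47 and 9.28 FPKM at 5 years, with a change of -0.33 (standard error 0.38). Next to COX8C, the BTBD7-listed row was at 3.51 and 1.74 FPKM in 18M animals 2 and 3 and was listed at 0 in the other 4 libraries. The log2 change of this row was -3.1 (standard error 1.28), with an unadjusted p of 0.0438 and an adjusted p of 0.190 from limma. The row passed the filter of 0.5 FPKM only through 2 of the 18M libraries. With 0 in every 5-year library, the size of the change depends on the 0.1 FPKM added, and no difference is read from it. Next to COX4I1, the IRF8-listed row was at 60.3, 60.9 and 64.1 FPKM at 18M and 42.6, 61.4 and 56.4 FPKM at 5 years. The ID1-listed row, next to COX4I2 and annotated with the cellular response to hypoxia, did not exceed 0.238 FPKM in any library. The MSI1-listed row, 2 genes from COX6A1, was at 22.9, 22.0 and 25.9 FPKM at 18M and 38.1, 33.5 and 37.6 FPKM at 5 years. All 5-year libraries lay above all 18M libraries for this row, including animal 2, with a log2 change of 0.62 (standard error 0.14), an unadjusted p of 0.00309 and an adjusted p of 0.154 from limma.

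**Figure D3:**
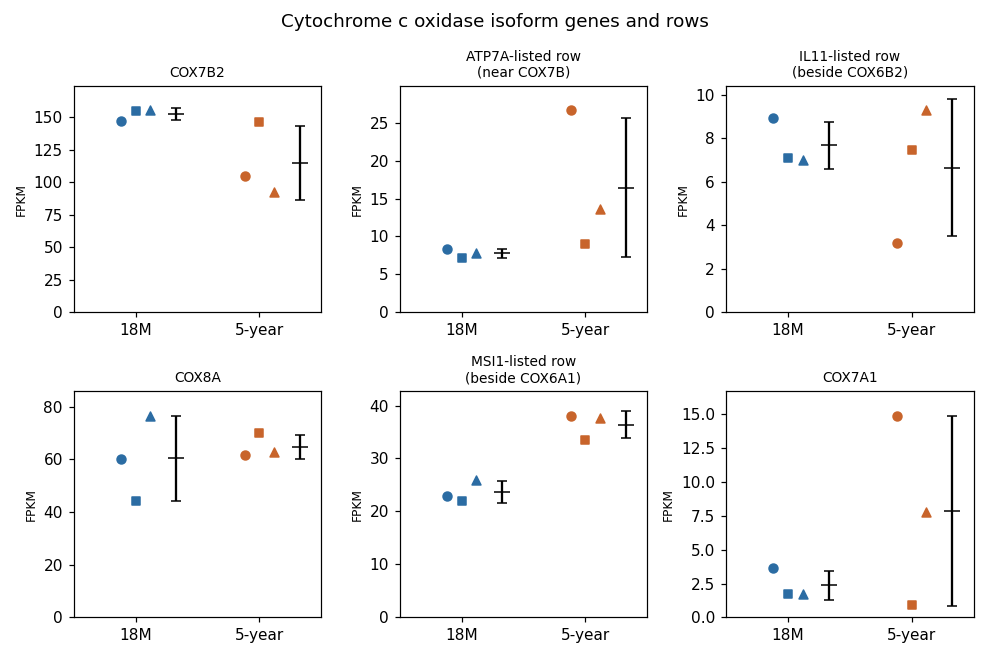
FPKM of 3 complex IV genes and 3 rows annotated to complex IV or oxidative phosphorylation but listed under a neighbouring gene, with 1 point per animal and the mean with its SD (bars) for 18M in blue and 5 years in orange. Circles, squares and triangles are animals 1, 2 and 3. COX7B2 lies lower at 5 years and the ATP7A-listed and MSI1-listed rows lie higher, while COX8A, COX7A1 and the IL11-listed row overlap.

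A list of other energy genes with germ cell forms or transcripts was set beside COX7B2. Of 9 measured genes, 6 were lower and 0 higher at an unadjusted p under 0.05, against 10.9% and 14.2% of all genes, with a median log2 change of -0.75, and 0 passed an adjusted p of 0.05 in limma. The list includes HK1, of which only some transcripts are germ cell forms, and SUOX, which has no separate germ cell gene. Without these 2 genes, 5 of 7 were lower and 0 higher. GAPDHS, the sperm form of glyceraldehyde-3-phosphate dehydrogenase, was at 113, 107 and 112 FPKM at 18M and 23.3, 69.3 and 64.4 FPKM at 5 years, with a change of -1.23 (standard error 0.40) and an adjusted p of 0.158. PGK2, the germ cell phosphoglycerate kinase, was at 188, 182 and 196 FPKM against 82.7, 160 and 137 FPKM, and its ubiquitous counterpart PGK1 was at 0.902, 1.05 and 0.974 FPKM against 2.58, 1.34 and 2.50 FPKM. PDHA2, the testis form of the pyruvate dehydrogenase E1 alpha subunit, was at 60.4, 54.0 and 64.9 FPKM against 19.2, 50.2 and 34.5 FPKM. Its counterpart PDHA1 was at 2.56, 3.39 and 2.60 FPKM against 5.93, 3.36 and 3.78 FPKM. The third measured counterpart, ENO1, the ubiquitous enolase, ran the other way at 42.0, 35.6 and 38.4 FPKM against 28.6, 32.2 and 37.5 FPKM, with a log2 change of -0.24 (standard error 0.16) and overlapping groups. The row listed as SLC25A31, the symbol of the germ cell ADP/ATP carrier, overlapped between the ages at 8.05 to 12.9 FPKM over all libraries. Its own GO terms begin with ribosomal small subunit assembly, so these values may belong to another gene. This row is counted in the 9 and in the 7 genes above. GAPDHS is also among the elongating spermatid markers, so the 2 lists are not separate.

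Among 35 tested genes for other steps of oxidative phosphorylation, 3 were higher and 0 lower at 5 years at an unadjusted p under 0.05, with a median log2 change of 0.13. Both counts are below the shares of all genes tested, 14.2% higher and 10.9% lower, which are also the background of the next 3 lists. The 3 were SLC25A6, a somatic ADP/ATP carrier, at 24.2, 31.6 and 31.7 FPKM against 92.4, 39.2 and 55.6 FPKM, and the complex I assembly factors TMEM126B and FOXRED1. CYC1, the cytochrome subunit of complex III, overlapped at 7.63 to 11.1 FPKM. In the citrate cycle, 3 of 13 genes were higher and 0 lower, namely DLST, SUCLG1 and SUCLA2, with a median of 0.31. Of 6 genes of the outer membrane, 2 were higher, VDAC1 and TOMM22. Of 5 tested regulators, 1 was lower: TFAM, the mitochondrial DNA packaging factor, was at 67.9, 60.4 and 66.0 FPKM at 18M and 18.4, 47.5 and 33.4 FPKM at 5 years. No gene of these lists passed an adjusted p of 0.05 in limma.

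**Figure D4:**
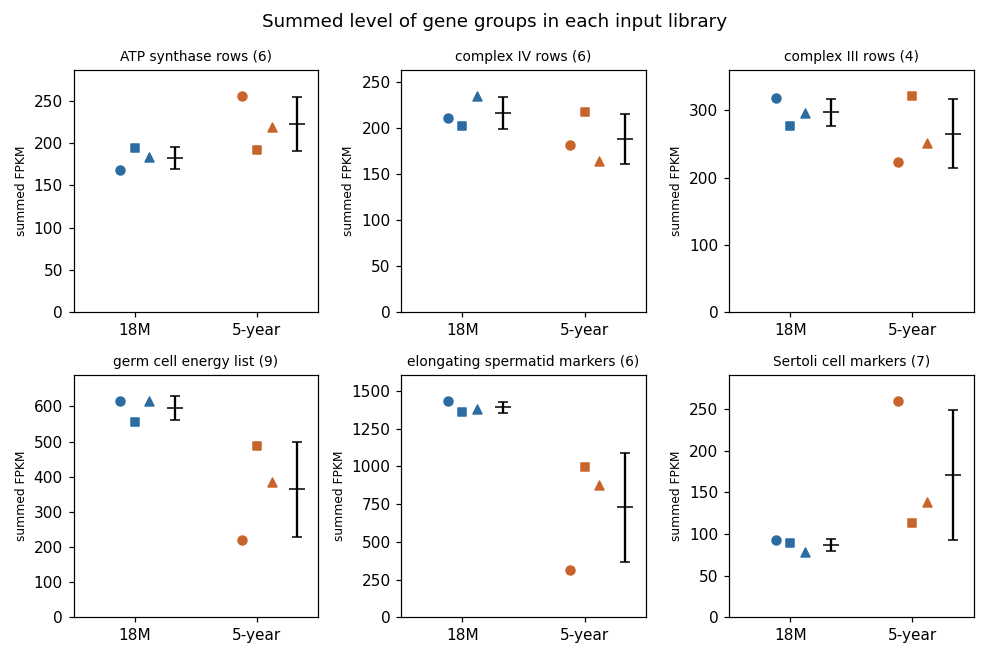
Summed FPKM of gene groups in each input library, with 1 point per animal and the mean with its SD (bars), 18M in blue and 5 years in orange, and circles, squares and triangles for animals 1, 2 and 3. The ATP synthase and complex III sums overlap between the ages, whereas the germ cell energy list and elongating spermatid markers are lower, and the Sertoli cell markers higher, in every 5-year library. GAPDHS is part of both the germ cell energy list and the elongating spermatid markers.

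The rows of the symbol rule without a respiratory annotation included some of the largest differences, and these are given by identifier because the symbol may belong to a neighbour. The row ENSBGRG00000016260 listed as ATP5PD was at 54.5, 49.0 and 49.1 FPKM at 18M and 10.8, 35.4 and 22.4 FPKM at 5 years, with a log2 change of -1.31 (standard error 0.39) and an adjusted p of 0.154. The annotated ATP5PD row, the d subunit of the ATP synthase stalk, was instead at 4.59, 6.21 and 3.87 FPKM against 6.39, 5.12 and 8.38 FPKM, with a change of 0.43 (standard error 0.24). The row ENSBGRG00000016387 listed as COX8A was at 1.70, 1.73 and 0.771 FPKM against 0.219, 0.462 and 0.535 FPKM, with a change of -1.55 (standard error 0.42). With a 5-year mean of 0.405 FPKM, it passed the filter of 0.5 FPKM only through the 18M libraries. Its change is therefore given as a description of a row near the floor. The only row listed as NDUFS1, ENSBGRG00000009516, had terms of another function and was at 14.4, 15.1 and 13.6 FPKM against 21.9, 17.0 and 20.2 FPKM. Its change of 0.44 (standard error 0.15) had an unadjusted p of 0.0206 and an adjusted p of 0.162 from limma. The row ENSBGRG00000013805 listed as NDUFV1, annotated as a glutathione transferase, had a change of 0.55 (standard error 0.22), whereas the annotated NDUFV1 row changed by 0.18 (standard error 0.23).

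None of the 98 rows carried a differential m6A peak between the ages, by identifier or by symbol. Of these rows 36 had a respiratory annotation and 15 were listed at 0 FPKM in every library, so the count is not read as a shortage of peaks. The deposited comparison holds 1438 peaks on 1207 genes, and 5.63% of all genes in the expression table carried at least 1 of them. These peaks passed the authors' thresholds for a difference between the ages, so their absence does not say whether the transcripts carry m6A.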

How the data were processed

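Testes of 3 yaks of 1.5 years and 3 yaks of 5 years gave input and m6A immunoprecipitated libraries, 12 in all. The FPKM values per gene and input library were deposited by the authors, who used Trimmomatic and HISAT2 (2.0.4, per the submitters' processing notes) and the LU_Bosgru_v3.0 assembly, and discarded reads with several alignments. The differential peak table was used for its genes, positions and widths (bp). Per-group peak lists were not used.

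Genes with a mean of at least 0.5 FPKM were tested on log2(FPKM + 0.1) with limma 3.58.1 (R 4.3.3, trend), without a block, with Benjamini-Hochberg adjustment over all genes tested. The steps were tested on simulated data. A row counted as annotated where its own GO terms or pathways named a respiratory complex, its assembly or ATP synthase. Neighbour relations came from RefSeq (Bosgru_T2T1.0), a build other than that of the files, so no coordinates are given. Ratios were tested by exact permutation. P-values measure the spread between these animals.

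Members, gene lists and tests were chosen with earlier results of these data known. Named were the isoform genes, the 5 largest positive and 5 largest negative moderated t, the highest row of each complex, and lists of other pathway genes, citrate cycle, outer membrane, regulators, germ cell energy isoforms and cell type markers, each taken at the lowest identifier of its symbol without a check of its annotation. The rule had the highest mean stand for a symbol. The annotated row was described instead, after the values were seen. The alternatives were other pseudocounts, filters, scalings and forms of eBayes, a replicate block, each library left out, and other row sets. With the same number, animals of both ages showed correlations of their deviations of -0.0222, -0.0909 and 0.00668, so the numbers do not pair them. One member is not reported here by name. Sequences of these genes were not analysed here.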

Additional observations from a re-analysis of the deposited data

How the results depend on the processing

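The count of 0 oxidative phosphorylation rows with an adjusted p under 0.05 held under every alternative other than leaving out 5-year animal 2 (range 0 to 6 over the libraries left out). Without that animal 6 of 60 rows were called in limma, against 20.3% of all genes tested. The counts at an unadjusted p under 0.05 were 6 rows higher and 3 lower of 60, against 14.2% and 10.9% of all genes tested. The higher count was 3 with libraries at equal medians, 2 with a replicate block and 0 at a p under 0.01, and it lay between 1 and 9 with each library left out. The lower count was 1 at a p under 0.01, 1 among rows with a matching annotation and 1 among the lowest identifiers (both row sets chosen after seeing the data), and 2 to 7 with each library left out. The rows of the 60 whose ages did not overlap were 7 above and 4 below, against 19.8% and 13.9% of all genes tested. They numbered 8 below at equal medians and 2 below in either row set. With each library left out they numbered 8 to 13 above and 4 to 13 below. Smaller groups separate more easily, and the shares of all genes under these alternatives are not given, so no rise is read from these counts. No member had a differential peak by symbol either, nor with peaks of at most 1000 bp.

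The difference of -0.57 in the log2 ratio of COX7B2 to COX8A lay between -0.75 and -0.36 with each library left out, and that of -1.37 to the ATP7A-listed row between -1.92 and -0.90. The replicate block left both ratio differences unchanged by construction. Of 318 values of 20 single rows under alternatives, 303 kept direction and side of the threshold, 6 passed the threshold (all without 5-year animal 2) and 9 changed sign. NDUFB1 became 0.028 and NDUFV2 0.097 under quantile scaling and NDUFV2 0.026 at equal sums. COX7A2L became -0.066 under quantile scaling and lay between -0.33 and 0.39 with each library left out, negative without 18M animal 1 and without 5-year animal 3. SDHB lay between -0.10 and 0.42 with each library left out, negative without animal 2 of either age, and COX8A between -0.070 and 0.32, negative without 18M animal 2. Equal library sums moved the median of all genes to 0.17, and of the annotated rows to 0.17. Under quantile scaling these medians were 0.03 and 0.13, with 24 of 34 annotated rows positive. The median of the complex III genes, -0.08 without scaling, became 0.12 under quantile scaling. The causes were not tested. Intervals that need fragment numbers were not computed.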

Other observations

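Of the 40 rows with a respiratory annotation listed under a gene near a respiratory chain gene in RefSeq, 35 were tested, 5 were higher and 2 lower at 5 years at an unadjusted p under 0.05, where 14.2% and 10.9% of all genes were, so the counts are near or below this background, and 0 passed an adjusted p of 0.05 in limma. Their median log2 change was 0.13. The BTBD7-listed row, 1 of the 2 lower ones, was at 0 FPKM in every 5-year library. Several of the 40 rows were more abundant than most rows with their own symbol. The row listed as ZFYVE21, 2 genes from ATP5MJ, was at 233, 229 and 210 FPKM at 18M and 129, 235 and 247 FPKM at 5 years. The RGS22-listed row, next to COX6C, was at 206, 183 and 217 FPKM against 309, 274 and 196 FPKM. The BRAF-listed row, next to NDUFB2, was at 176, 127 and 191 FPKM against 108, 152 and 127 FPKM, and the ages overlapped in all 3 rows.

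The LRRC14B-listed row, 2 genes from SDHA, was at 7.80, 8.70 and 7.80 FPKM at 18M and 14.7, 8.77 and 12.9 FPKM at 5 years, and all 5-year libraries were above the 18M ones. The CFLAR-listed row, next to NDUFB3, was at 14.1, 14.9 and 13.3 FPKM against 12.2, 10.4 and 10.8 FPKM, with all 5-year libraries below. The adjusted p-values of these rows in limma were 0.177 and 0.185.

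The other marker lists did not all follow the spermatids. The counts below are to be read beside the 14.2% of all genes tested that were higher and the 10.9% that were lower. At an adjusted p under 0.05 in limma, 0 genes of these lists were called. Of 7 spermatocyte markers, 0 were higher or lower at an unadjusted p under 0.05 in limma, with a median log2 change of 0.04, and of 7 spermatogonial markers 1 was higher. Of 7 Sertoli cell markers 6 were higher, of 7 peritubular and stromal markers 5 were higher, of 2 Leydig cell markers 1 was lower, of 5 macrophage markers 2 were lower, and of 4 tested endothelial markers 0 were called. The 1 erythroid marker with a row, ALAS2, was listed at 0 in all libraries. Of 6 round and 6 elongating spermatid markers, 5 and 5 were lower. SPATA18 and GPX4, 2 genes tied to sperm mitochondria, were both lower, GPX4 at 579, 571 and 590 FPKM against 224, 484 and 395 FPKM.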
